A study of Mus musculus with 66 samples.

Results

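The genes described here are 10 transcription factor genes of the p0 and p1 domains of the ventral spinal cord and of the V0 and V1 interneurons that these domains produce. They were chosen by symbol, as the rows Dbx1, Dbx2, Prdm12, Prdm13, Evx1, Evx2, En1, Pax2, Lhx1 and Lhx5 of a table of 24410 genes. The first 4 are progenitor factors and the other 6 are factors of postmitotic neurons. The data are polyadenylated RNA from 66 libraries of sorted progenitors, made from mouse embryonic stem cells on days 5, 7, 9 and 11 of differentiation (D5 to D11). Cells were grown in bFGF at 10 ng/ml. From day 2 they also received CHIR99021, which blocks GSK3, at 5 µM. From day 3 they were given SAG, which activates Smoothened and so hedgehog signalling, at 10 nM, and, until day 5, retinoic acid at 100 nM. All groups share this treatment. They were fixed in glyoxal, stained inside the cell and sorted, with 10000 to 15000 cells per population.

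The libraries are 29 MUT and 37 WT. Each comes from a sorted population labelled p1 (p0-p1 in the series description), p2 or pM, where pM is the motor neuron progenitor domain, and was also gated on NFIA, a factor known from the switch to making glia. All MUT libraries are NFIA negative (NFIAn). WT libraries are NFIAn at D5, D7 and D9 and NFIA positive (NFIAp) at D11, and at D9 the NFIAp cells of p2 and pM were collected as well. This gives 26 groups, of which 15 hold 3 libraries, 10 hold 2 and 1 holds 1. The labels name neither the mutated gene nor the stained proteins that set the p1, p2 and pM gates, so it is not known here whether a member was itself used to sort. They do not say that replicates were separate cultures, and p-values measure the spread between these libraries only.

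In the embryonic neural tube, graded Sonic hedgehog divides ventral progenitors into domains that repress each other's transcription factors. Dbx1 marks the p0 domain, which makes V0 commissural interneurons, and Dbx2 extends across p0 and p1, which makes the inhibitory V1 interneurons. As cells leave the cycle, Evx1 and Evx2 come on in ventral V0 neurons and En1 in V1 neurons, while Pax2, Lhx1 and Lhx5 are shared by many inhibitory interneurons, including dorsal ones.

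The unit throughout is the normalised count, a read count divided by the size factor of its library. The depth, in M (mega) reads, was 20.29 to 30.83 M for all libraries but 1, the exception being replicate 2 of MUT D5 p2 with 8.74 M. The 18 libraries numbered replicate 3 at D7, or replicate 2 or 3 at D9, had high totals of normalised counts, between 26.6 and 40.2 M, while the other 48 lay between 17.8 and 25.5 M. The gates were checked on markers. All 7 tested genes of pM and motor neurons were lower in p1 than in pM, in MUT and in WT alike, and 3 of 8 genes of p2 and V2 were lower in p1 than in p2 in both genotypes. Genes of postmitotic neurons were present in every population. Their summed level over 14 genes in p1 was 2477 to 2872 normalised counts in MUT and 3311 to 3424 in WT at D5, and 35040 to 42860 in MUT and 26600 to 39090 in WT at D11. In these bulk populations, fewer cells of a type and less RNA per cell cannot be told apart.

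Promoters are shown for 5 members whose levels moved together below, namely Dbx1 with Prdm13, and En1 with Evx1 and Lhx1. Each run holds 250 bases before and 50 bases after the annotated start, 5′ to 3′ on the gene's strand, from RefSeq on GRCm38.p6. Capitals mark TAAT or its reverse complement ATTA, the core that many homeodomain proteins bind. The windows are chr7:49636786-49637085 (minus strand) for Dbx1, chr4:21685914-21686213 (minus) for Prdm13, chr1:120602237-120602536 (plus) for En1, chr6:52313248-52313547 (plus) for Evx1 and chr11:84525485-84525784 (minus) for Lhx1.
Dbx1: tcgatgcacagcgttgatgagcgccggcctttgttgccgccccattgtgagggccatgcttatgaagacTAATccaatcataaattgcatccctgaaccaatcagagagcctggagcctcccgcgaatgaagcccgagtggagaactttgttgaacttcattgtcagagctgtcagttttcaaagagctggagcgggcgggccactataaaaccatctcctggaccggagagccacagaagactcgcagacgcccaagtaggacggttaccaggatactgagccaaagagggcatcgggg
Prdm13: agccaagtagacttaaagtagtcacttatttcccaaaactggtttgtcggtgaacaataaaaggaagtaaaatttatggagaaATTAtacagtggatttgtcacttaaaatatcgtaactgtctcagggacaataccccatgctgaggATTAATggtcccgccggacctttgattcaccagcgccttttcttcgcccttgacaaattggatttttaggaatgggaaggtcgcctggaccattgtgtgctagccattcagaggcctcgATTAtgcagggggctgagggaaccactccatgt
En1: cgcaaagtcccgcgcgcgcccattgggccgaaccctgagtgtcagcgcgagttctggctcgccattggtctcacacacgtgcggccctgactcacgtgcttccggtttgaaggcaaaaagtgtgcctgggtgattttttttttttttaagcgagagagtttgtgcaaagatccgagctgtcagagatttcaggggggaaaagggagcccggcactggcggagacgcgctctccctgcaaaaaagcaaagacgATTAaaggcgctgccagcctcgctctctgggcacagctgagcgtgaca
Evx1: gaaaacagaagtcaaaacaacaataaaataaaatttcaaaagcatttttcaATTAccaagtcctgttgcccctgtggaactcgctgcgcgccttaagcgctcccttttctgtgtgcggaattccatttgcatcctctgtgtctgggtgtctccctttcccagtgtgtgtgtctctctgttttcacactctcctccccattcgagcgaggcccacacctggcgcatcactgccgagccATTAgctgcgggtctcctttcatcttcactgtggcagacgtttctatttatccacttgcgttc
Lhx1: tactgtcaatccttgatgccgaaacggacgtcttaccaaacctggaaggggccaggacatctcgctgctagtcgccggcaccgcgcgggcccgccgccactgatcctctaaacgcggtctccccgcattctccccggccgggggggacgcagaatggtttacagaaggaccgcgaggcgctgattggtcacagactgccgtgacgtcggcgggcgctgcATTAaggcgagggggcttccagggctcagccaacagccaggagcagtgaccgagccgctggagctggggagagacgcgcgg
TAAT or ATTA occurred at 1 place in the Dbx1, En1 and Lhx1 windows, at 2 in Evx1 and at 4 in Prdm13, where 2 of them overlap. Of the 9 members with a RefSeq window, 7 held at least 1 match, and 58.0% of all 32851 windows of this length did. The first count is per gene and the share is per window: Pax2 has 3 windows, of which 1 held a match. TATAAA or TTTATA, the letters of a TATA box, occurred in the windows of Dbx1 and Evx2 and in 13.6% of all windows. A match describes these letters only. No window was found for Lhx5.

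Dbx1 was the member most closely tied to the p1 gate. It lies on chromosome 7 (49631499 to 49636849, minus strand; GRCm38) and encodes a homeodomain factor that keeps p0 cells from taking the V1 fate. Over the 21 p1 libraries its normalised count was 3032 at the lowest, 5796 at the median and 13680 at the highest. In p2 the same values were 110.8, 565.8 and 2074 over 23 libraries, and in pM they were 19.83, 162 and 477.2 over 22. Every p1 library thus lay above every p2 and pM library, and of the 15714 genes tested this held for 1 gene (0.00636%), Dbx1 itself.

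The p1 libraries of Dbx1 also differed among themselves. In MUT p1 its normalised counts were 4252, 4935 and 4192 at D5, 6986, 6807 and 5720 at D7, 9463 and 8507 at D9, and 11910 and 13680 at D11. In WT p1 they were 7270, 4573 and 5234 at D5, 4549, 5463 and 3032 at D7, 6754, 5796 and 5912 at D9, and 6034 and 3258 at D11. The 4 MUT libraries of D9 and D11 were the 4 highest of all 66, while the WT days overlapped. Ordered by mean, MUT D11 p1 stood apart from MUT D9 p1, and that group from MUT D7 p1. The next 6 groups, from MUT D7 p1 down to WT D7 p1, overlapped each with its neighbour.

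**Figure D1:**
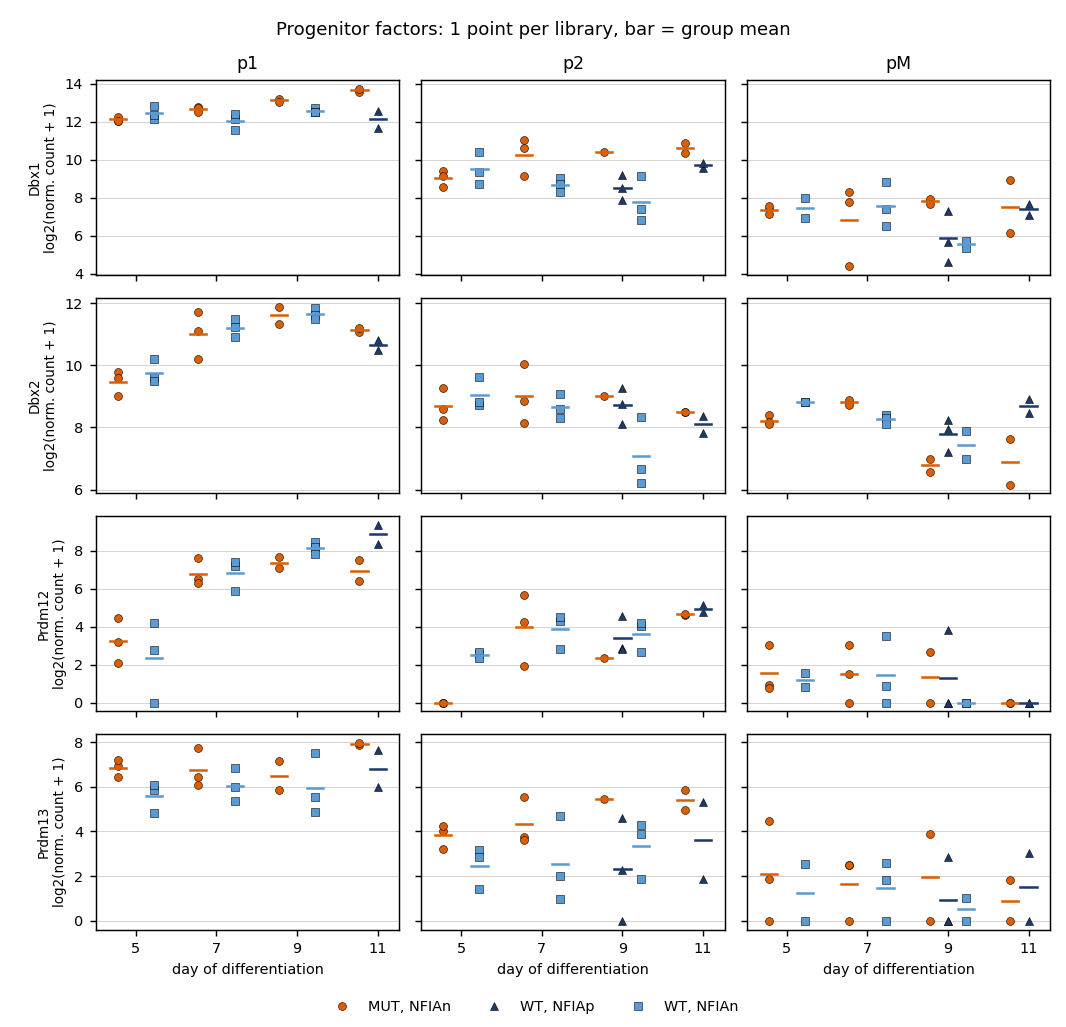
Normalised counts of Dbx1, Dbx2, Prdm12 and Prdm13 on the log2(normalised count + 1) scale by day, with 1 point per library, short bars for group means and 1 column of panels for each of p1, p2 and pM. Dbx1 and Prdm13 were high in p1 from D5, Dbx2 was at 517.5 to 1173 normalised counts in p1 at D5 and above that in every later p1 library, and Prdm12 came up in p1 after D5.

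Dbx2, a homeodomain factor of p0 and p1, behaved differently at the start. It lies on chromosome 15 (95623563 to 95655960, minus strand). At D5 its normalised counts were 878.3, 765.6 and 517.5 in MUT p1, against 613.1, 383 and 304.3 in MUT p2. In WT at D5 they were 1173, 773.1 and 715.1 in p1, against 787.6, 417.9 and 445.6 in p2. These groups overlapped in both genotypes. By D9 the WT p1 libraries held 3628, 3157 and 2869, against 101, 73.6 and 323.9 in WT NFIAn p2, with no overlap.

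Prdm12 and Prdm13, zinc-finger proteins of the PRDM family, were far lower than the Dbx genes. Prdm12, which is needed for V1 neurons, lies on chromosome 2 (31640037 to 31655795, plus strand). It was nearly off in p1 at D5, with 3.259, 8.031 and 20.87 normalised counts in MUT and 17.63, 0 and 5.87 in WT. At D11 it reached 184.4 and 83.46 in MUT p1 and 334.4 and 667 in WT p1, so that the 2 WT libraries lay above the 2 MUT libraries. The MUT libraries there are NFIAn and the WT libraries NFIAp, so genotype and gate cannot be told apart. In pM it was at 0 in 11 of 22 libraries and at most 13.27. An antisense gene, Gm13425, overlaps exons of Prdm12, and antisense genes likewise overlap Evx1 (Evx1os) and Lhx5 (Gm27199). The strand setting of the counting is not given in the sources used here, so reads of such partners cannot be told apart.

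Prdm13, known for its part in dorsal interneuron choice, lies on chromosome 4 (21677480 to 21685963, minus strand) and was present in p1 at every day. It had 26.91 to 248.7 normalised counts in the 21 p1 libraries, against 0 to 56.48 in p2 and 0 to 20.96 in pM. All p1 libraries lay above all p2 and all pM libraries in 8 of 8 combinations of genotype and day, which was also so for Dbx1. Dbx2 did so in 6 of 8 against p2 and 8 of 8 against pM. The groups hold 1 to 3 libraries each, and the share of all genes that separate in this way within a genotype and day was not counted. These counts are therefore a description only.

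Per kilobase of exon, the only scale on which levels of different genes are set side by side here, the means in WT D9 p1 were 2943 for Dbx1, 927.6 for Dbx2, 118.2 for Prdm12 and 19.66 for Prdm13. On the same scale and in the same libraries the neuronal factors had 123.4 for Lhx1, 105.5 for Lhx5, 54.46 for En1, 14.74 for Evx1 and 2.034 for Pax2. The per-length ratio of Dbx1 to Dbx2 was taken library by library. In p1 it was 8.03 to 13.4 in MUT and 9.81 to 12.1 in WT at D5, and 3.46 to 7.99 in MUT and 2.63 to 3.76 in WT at D7. It was 4.15 to 5.48 in MUT and 3.05 to 3.42 in WT at D9, and 9.23 to 9.73 in MUT and 3.73 to 5.59 in WT at D11. Dbx2 thus gained on Dbx1 between D5 and D7 in both genotypes, and at D9 and D11 the MUT and WT ratios did not overlap. At D11 MUT is NFIAn and WT is NFIAp, so genotype and gate cannot be told apart. The groups are small, and these ratios are a description, with no test.

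**Figure D2:**
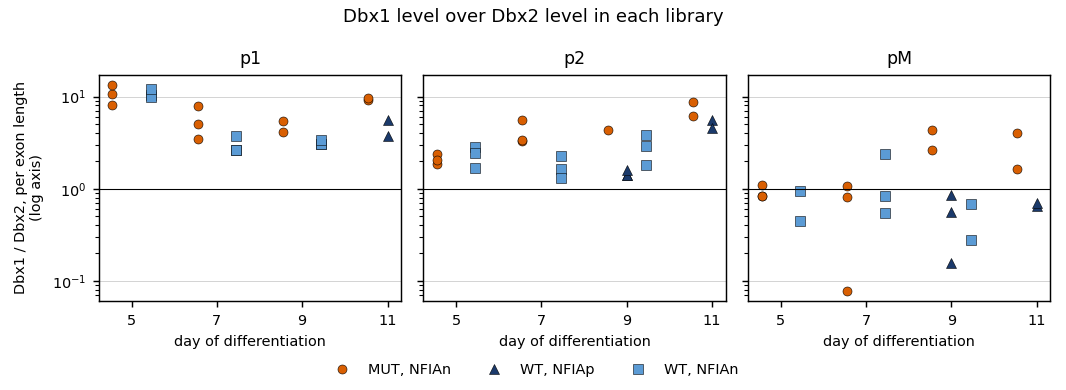
Ratio of the Dbx1 to the Dbx2 level per exon length in each library (log axis) by day, for p1, p2 and pM, with a line at equal levels. In p1 the ratio was 8.03 or more in all 6 libraries of D5, and at D11 it was 9.23 and 9.73 in MUT (NFIAn) against 3.73 and 5.59 in WT (NFIAp).

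The first comparison asks which members set p1 apart from its neighbours. Differences are log2(normalised count + 1), averaged over the 4 days, from limma on all 66 libraries, with a Benjamini-Hochberg adjusted p below 0.05 over 15714 genes counted as a call. Evx2 did not pass the filter on low values (2 reads in all, in 1 library, WT D7 p2 replicate 1), so 9 of the 10 members were tested. A gene was kept when 2 or more libraries had a normalised count of 10 or more.

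Against p2, 3 members were called in MUT, where 0.598% of all genes were called (0.216% higher), and 4 in WT, where 1.83% were (0.554% higher). All were progenitor factors and all were higher in p1. Dbx1 was higher by 2.81 ± 0.39 in MUT (SE; 10 and 9 libraries; adjusted p = 8.06e-06, limma) and by 3.38 ± 0.35 in WT (11 libraries each; 2.21e-09). For Dbx2 the difference was 2.00 ± 0.25 in MUT and 2.60 ± 0.22 in WT, and for Prdm12 it was 3.36 ± 0.58 in MUT and 2.81 ± 0.51 in WT. Prdm13 was called in WT at 3.10 ± 0.61 and had 2.25 ± 0.69 in MUT, with a limma adjusted p of 0.145. It was called in MUT in 4 of the 8 alternatives other than leaving out 1 library. These were a pseudocount of 8, only the compared groups fitted, the replicate number as a block and correlated libraries. None of the neuronal factors was called against p2 by this fit. With a pseudocount of 8, Evx1 and En1 were called in WT (1.08 and 1.02, limma adjusted p of 0.00541 and 0.025). In WT, Evx1, En1 and Lhx1 were called with the replicate number as a block (limma adjusted p of 0.0181, 0.0304 and 0.0313) and with correlated libraries of a day and number (0.00872, 0.0193 and 0.0228), which brings the members called to 7 in both. Under the block 1342 of all 15714 genes were called in WT, against 288 in the main fit. Evx1 came nearest in WT without the block, at 1.65 ± 0.48 (limma adjusted p = 0.0613), and was called without WT D7 p1 replicate 1 (0.0349), WT D7 p2 replicate 3 (0.0464) or WT D9 p2 replicate 1 (0.0373).

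Against pM, 4 members were called in MUT (6.64% of all genes called, 3.49% higher) and 7 in WT (6.19% called, 3.34% higher), again all higher in p1. Replicate numbers paired the MUT p1 and pM libraries, and with the replicate number as a block 7 members were called in MUT, the added ones being Pax2, Lhx1 and Lhx5 with limma adjusted p of 0.0353, 0.0263 and 0.0431. Calls rose generally under the block in MUT, to 2773 of all 15714 genes against 1043 in the main fit. Dbx1 was higher by 5.51 ± 0.37 in MUT and 5.30 ± 0.37 in WT (10 against 10 and 11 against 9 libraries). Prdm12 was higher by 4.99 ± 0.54 in MUT and 5.90 ± 0.54 in WT, and Prdm13 by 5.34 ± 0.64 in MUT and 4.91 ± 0.64 in WT. Dbx2 differed less, by 3.12 ± 0.23 in MUT and 2.51 ± 0.23 in WT. For Prdm12 in pM at D11, where both libraries of each genotype were at 0, p1 was at least 43.5-fold higher in MUT and at least 188-fold higher in WT, against a floor of 3 reads per library.

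The 3 further calls in WT against pM were neuronal factors. En1 was higher by 1.91 ± 0.44, Evx1 by 2.04 ± 0.51 and Lhx1 by 1.28 ± 0.37, with limma adjusted p of 0.00294, 0.00647 and 0.0224. In MUT the same 3 had 0.98 ± 0.44, 1.08 ± 0.51 and 0.87 ± 0.37 without passing (limma adjusted p of 0.2, 0.229 and 0.164). The WT call of Evx1 did not hold in edgeR (adjusted p = 1) or DESeq2 (0.218). That of Lhx1 was lost without WT D11 p1 replicate 2 (adjusted p = 0.0546), WT D11 pM replicate 2 (0.0873), WT D5 pM replicate 3 (0.056) or WT D9 pM replicate 1 (0.0633). Pax2 was gained in WT without WT D7 p1 replicate 3 (0.0252), without the 18 libraries of high total (0.0277) and with a pseudocount of 8 (0.0339). It was also gained in DESeq2 (0.037), with the replicate number as a block (0.00946) and with correlated libraries (0.00878). Lhx5 was gained in WT with a pseudocount of 8 (0.0288), with the block (0.0217) and with correlated libraries (0.039). Under the block 2405 of all 15714 genes were called in WT, against 972 in the main fit. Within single days, En1 was the only neuronal factor called against pM, in WT at D9 (3.78 ± 0.88, limma adjusted p = 0.0085, where 1.58% of all genes were called). Beside these members, of 14 genes of postmitotic neurons 0 were higher and 7 lower in p1 than in pM in MUT, and 0 were higher and 4 lower in WT, and the rest were not called. Their part in the result was not tested.

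**Figure D3:**
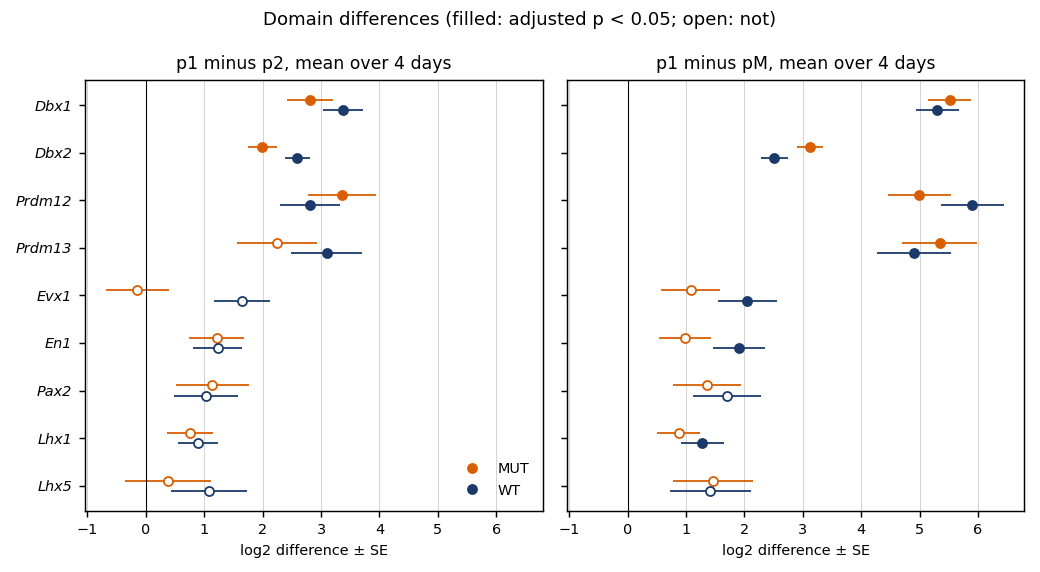
Log2 difference ± SE of each tested member between p1 and p2 (left) and p1 and pM (right), averaged over 4 days, for MUT and WT, with filled points past an adjusted p of 0.05. The 4 progenitor factors had the largest differences in all 4 comparisons, between 2.00 and 5.90, and all 5 neuronal factors were at 2.04 or below.

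Other genes of the 2 cell states were read from lists. Of 9 partners of p0-p1 progenitors, 0 were higher and 1 lower in p1 than in p2 in MUT, and 4 were higher and 1 lower in WT. Against pM, 7 of the 9 were higher in both genotypes, and 1 was lower in MUT. Pax3, a paired-domain factor of more dorsal progenitors, averaged 437.4 normalised counts in WT p1, against 100.6 in WT p2 (2.32 ± 0.50) and 23.96 in WT pM (4.51 ± 0.53). Gli3, an effector and repressor in hedgehog signalling, averaged 975.7 in WT p1 against 451.8 in WT p2 (1.48 ± 0.27), and Nkx6-2, a homeodomain repressor of ventral progenitors, 381 in WT p1 against 164.6 in WT p2 (1.19 ± 0.28). Prdm8, another PRDM family gene, was lower in p1, at 404.4 in MUT p1 against 809.5 in MUT p2, and 544.7 in WT p1 against 944.3 in WT p2. The median difference of the 9 partners against p2 was 0.30 in MUT, where that of all genes was 0.01, and 0.57 in WT, where that of all genes was -0.01.

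Of 15 tested partners of V0 and V1 neurons, 0 differed between p1 and p2 in MUT and 1 was higher in WT. Against pM, 2 were higher in MUT and 4 in WT, and none was lower. Foxd3, a forkhead factor of V1 neurons, averaged 110.7 normalised counts in MUT p1 against 7.564 in MUT pM (3.81 ± 0.52), and 119.1 in WT p1 against 4.352 in WT pM (3.73 ± 0.52). Bhlhe22, a bHLH factor of several interneurons, averaged 219.3 in MUT p1 against 27.83 in MUT pM (3.20 ± 0.40), and 254.6 in WT p1 against 23.29 in WT pM (3.53 ± 0.40). In WT the GABA-synthesising enzyme gene Gad2 was higher too, at 73.85 in p1 against 20.3 in pM (2.65 ± 0.60). Foxd3 and Pax3 are also genes of the neural crest. Of 6 genes of crest and peripheral neurons, 3 were higher in p1 than in pM in MUT and 2 in WT, while 0 were higher in p1 than in p2 in MUT and 1 in WT. Tfap2b, a crest and dorsal interneuron factor, averaged 113.6 in MUT p1 against 16.39 in MUT pM (2.72 ± 0.57), and 169.3 in WT p1 against 13.05 in WT pM (3.71 ± 0.57). Their part in the values of Foxd3 and Pax3 was not tested.

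The margin of Dbx2 over p2 was larger on D7 to D11 than on D5. In WT, where p1 and p2 were taken as NFIAn through D9 and as NFIAp at D11, it was highest at D9 and lower again at D11. That D9 margin is over NFIAn p2 only. Per kilobase of exon, Dbx2 in WT at D9 averaged 47.88 in NFIAn p2, 127.0 in NFIAp p2 and 927.6 in p1. The margin over NFIAp p2 is smaller and was not tested. Within single days of WT, Dbx2 was higher in p1 than in p2 by 0.71 ± 0.41 at D5, 2.55 ± 0.41 at D7, 4.57 ± 0.41 at D9 and 2.55 ± 0.51 at D11, with calls on the last 3 days (0.356%, 0.115%, 0.751% and 0.598% of all genes were called). In MUT it was higher by 0.76 ± 0.41, 2.00 ± 0.41, 2.60 ± 0.62 and 2.63 ± 0.51, with calls at D7 and D11 (0.439%, 0.0509%, 0.121% and 0.134%). Over the same days Dbx1 was already higher in p1 than in p2 at D5, by 3.10 ± 0.66 in MUT and 2.96 ± 0.66 in WT, both called.

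The change of that margin was tested directly, as the D9 minus D5 change in p1 less the same change in p2 or pM. All D9 groups in it were NFIAn, so the NFIAp cells of WT p2 and pM were left out. This comparison was chosen after its values were seen. For Dbx2 it was 3.85 ± 0.58 against p2 in WT (limma adjusted p = 0.000131, where 0.178% of all genes were called). Against pM it was 3.58 ± 0.65 in MUT (0.00082; 0.617% called) and 3.25 ± 0.65 in WT (0.00248; 0.834% called), and the WT value fell short without WT D9 pM replicate 1 (2.80; adjusted p = 0.0554). Against p2 in MUT, where D9 p2 has 1 library, it was 1.84 ± 0.74 and was not called (0.624; 0.146% called). Prdm12 had 7.02 ± 1.52 against pM in WT (limma adjusted p = 0.00708), a call lost without WT D5 pM replicate 2 (6.67; 0.0708), in edgeR (0.29) and with only the compared groups fitted (0.0852). For Dbx1 the 4 values lay between -0.37 and 2.07 and were not called.

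Outside p1, Dbx2 fell between D7 and D9 in WT NFIAn p2 and in MUT pM, and was not called in MUT p2 or WT NFIAn pM. In WT NFIAn p2 Dbx2 differed by -1.58 ± 0.41 between D9 and D7 (101, 73.6 and 323.9 against 317.1, 381.3 and 537.5 normalised counts; limma adjusted p = 0.025; 1.41% of all genes called lower), though 1 D9 library lay within the D7 range. The NFIAp p2 cells of D9 had no such fall. Per kilobase of exon, the WT p2 means of Dbx2 were 118.8 at D7, and 47.88 in NFIAn and 127.0 in NFIAp at D9. In MUT pM it differed by -2.03 ± 0.46 between the same days (94.03 and 126.8 against 450, 475.1 and 422; limma adjusted p = 0.012; 0.471% called lower), with no overlap.

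The next comparisons follow the members through time in p1. From D5 to D7, 3 members rose in MUT (5.36% of all genes called, 3.54% higher) and 6 in WT (4.73% called, 3.4% higher). In MUT these were Dbx2, Prdm12 and Lhx5, and in WT they were the same 3 with Evx1, En1 and Lhx1. In p1 the D7 minus D5 difference of Dbx2 was 1.55 ± 0.41 in MUT and 1.45 ± 0.41 in WT, and that of Prdm12 was 3.57 ± 0.96 in MUT and 4.50 ± 0.96 in WT (3 libraries per group, all 4 called by limma). Dbx1 and Prdm13 had differences between -0.40 and 0.54 and were not called. The steps from D7 to D9 and from D9 to D11 gave 0 called members in each genotype by limma, edgeR and DESeq2. From D7 to D9, 1.53% of all genes were called in MUT and 4.09% in WT, and 3 members in MUT and 0 in WT had an unadjusted p under 0.05. From D9 to D11, where the WT gate also changes to NFIAp, 0.465% of all genes were called in MUT and 3.32% in WT, and 0 members in MUT and 1 in WT had an unadjusted p under 0.05.

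Of the neuronal factors, Evx1, Evx2, En1, Pax2 and Lhx5 were at 8.031 normalised counts or below in all p1 libraries of D5, and Lhx1 was higher. Evx1 lies on chromosome 6 (52313498 to 52318378, plus strand) and had 0 reads in all 6 p1 libraries of D5. In MUT p1 it had 7.663, 0 and 11.49 normalised counts at D7, 38.11 and 33 at D9, and 132.6 and 62.8 at D11. In WT p1 it had 3.514, 21.78 and 16.93 at D7, 42.03, 25.37 and 59.79 at D9, and 114.3 and 171.9 at D11. Each later day lay above D5 apart from 1 MUT D7 library at 0. Against a floor of 3 reads per library, the D11 mean was at least 38.4-fold higher than D5 in MUT and at least 50.0-fold higher in WT.

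En1, the factor that defines V1 neurons, lies on chromosome 1 (120602418 to 120607992, plus strand). In MUT p1 it had 4.888, 8.031 and 2.504 normalised counts at D5, 52.68, 13.42 and 24.9 at D7, 123.5 and 88.92 at D9, and 120.6 and 68.58 at D11. In WT p1 it had 2.783, 1.914 and 5.87 at D5, 39.54, 62.83 and 87.73 at D7, 170, 138.1 and 120.7 at D9, and 170.4 and 86.88 at D11. D5 lay below every later library in both genotypes, and D9 and D11 overlapped. From D5 to D7 the difference was 2.25 ± 0.78 in MUT (limma adjusted p = 0.0876) and 3.86 ± 0.78 in WT (0.000859), and the WT call held without each library in turn.

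The LIM-homeodomain genes Lhx1 and Lhx5 act in many interneurons. Lhx5 lies on chromosome 5 (120431699 to 120441223, plus strand). In MUT p1 it had 0, 0.8924 and 0 normalised counts at D5, 159, 76.05 and 157 at D7, 253.8 and 157.7 at D9, and 496.4 and 450.3 at D11. In WT p1 it had 3.711, 6.698 and 0 at D5, 100.2, 87.13 and 167.8 at D7, 311, 100.1 and 439.6 at D9, and 285.8 and 305.9 at D11. Its D7 minus D5 difference was the largest of the members in both genotypes, at 6.66 ± 1.23 in MUT and 5.11 ± 1.23 in WT. At D5 it was higher in pM than in p1, at 18.24 to 20.04 in MUT pM and 25.5 to 39.92 in WT pM, and the p1 minus pM difference of that day was -4.02 ± 1.23 in MUT (limma adjusted p = 0.0756) and -3.32 ± 1.37 in WT (0.477), not called.

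Lhx1, on chromosome 11 (84518284 to 84525535, minus strand), was present in p1 from D5. It had 29.33 to 58 normalised counts in MUT and 17.63 to 61.24 in WT at D5, and 63.2 to 179.1 in MUT and 191.9 to 267.1 in WT at D7. It had 309.8 and 649.4 in MUT and 354.3 to 786.4 in WT at D9, and 298 and 680.1 in MUT and 220.8 and 341.9 in WT at D11. Pax2, on chromosome 19 (44756045 to 44837871, plus strand), stayed low, at 0 to 4.074 in MUT and 0.9568 to 6.495 in WT at D5, and 28.1 and 30.9 in MUT and 14.02 and 28.05 in WT at D11. Evx2, on chromosome 2 (74652991 to 74659557, minus strand), had 0 reads in all p1 libraries.

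**Figure D4:**
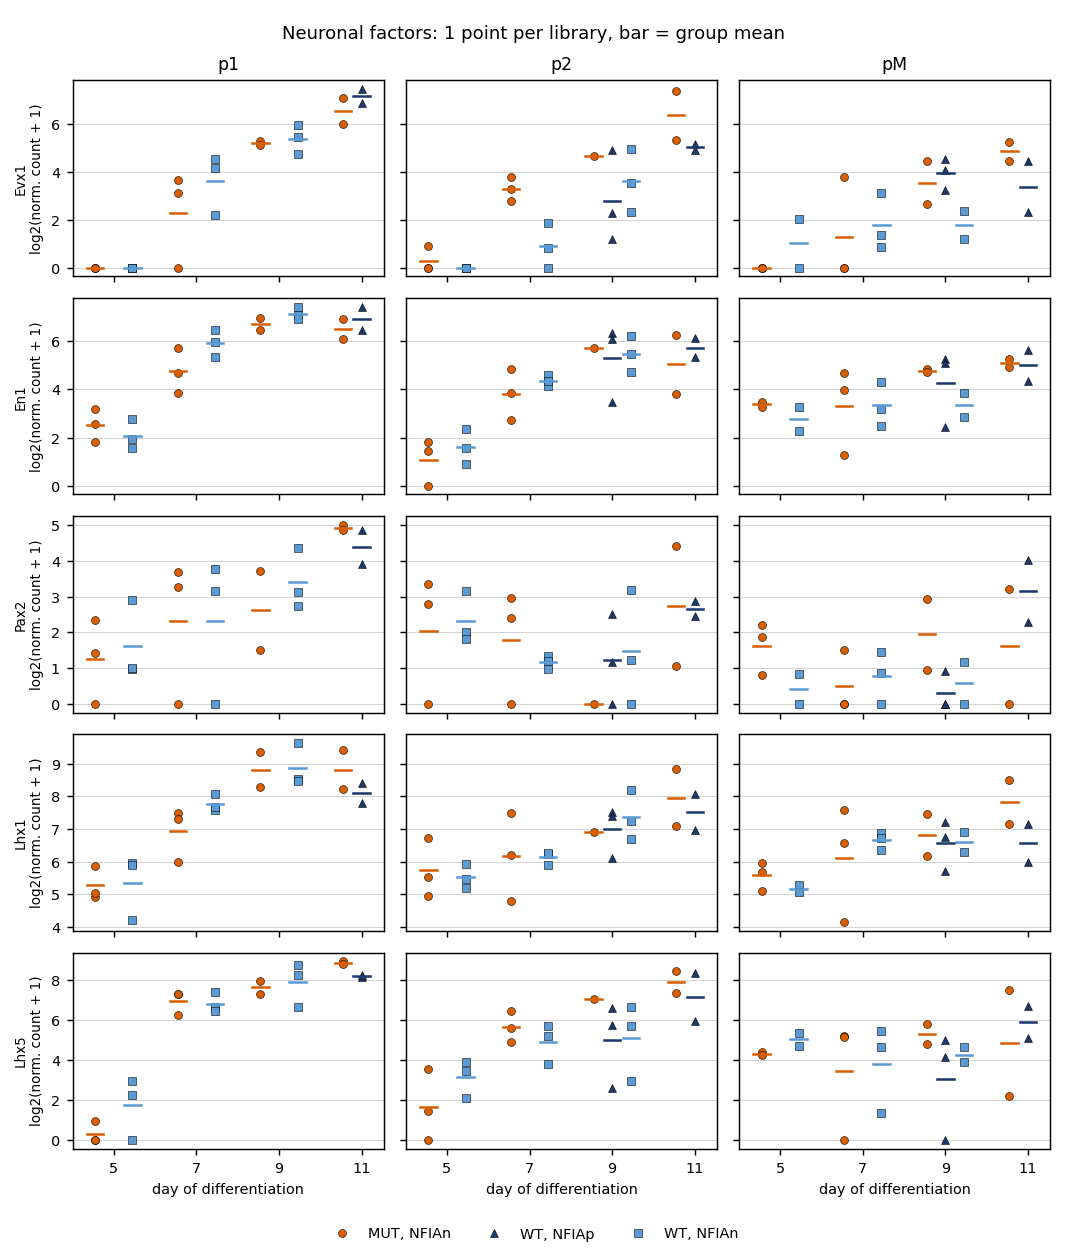
Normalised counts of Evx1, En1, Pax2, Lhx1 and Lhx5 on the log2(normalised count + 1) scale by day, with 1 point per library, short bars for group means and 1 column of panels for each of p1, p2 and pM. Evx1 was at 0 in all 6 p1 libraries of D5, and at D11 it was at 62.8 or more in all 4 p1 libraries.

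Many D5 to D7 calls depended on single libraries. In WT, Dbx2 was lost without D5 replicate 2 or 3 or D7 replicate 1 or 2 (limma adjusted p of 0.102, 0.131, 0.103 and 0.0751). Prdm12 was lost without D5 replicate 2 (0.0562), Evx1 without D7 replicate 2 or 3 (0.0668 and 0.0542), Lhx1 without D5 replicate 1 or D7 replicate 1 (0.166 and 0.0695) and Lhx5 without D5 replicate 3 (0.0791). In MUT, Dbx2 was lost without D5 replicate 3 or D7 replicate 1 (0.12 and 0.116) and Prdm12 without D5 replicate 1 or 2 or D7 replicate 1 (0.126, 0.0547 and 0.0798) and in edgeR (0.0571). Evx1 in WT was also lost with a pseudocount of 8 (0.0783) and with only the compared groups fitted (0.277). In DESeq2, Evx1 and En1 were called in MUT as well (0.0244 and 0.0184). Evx1 was gained in MUT without D7 replicate 2 (0.0254). Without MUT D7 replicate 1 only 1 member, Lhx5, remained called.

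**Figure D5:**
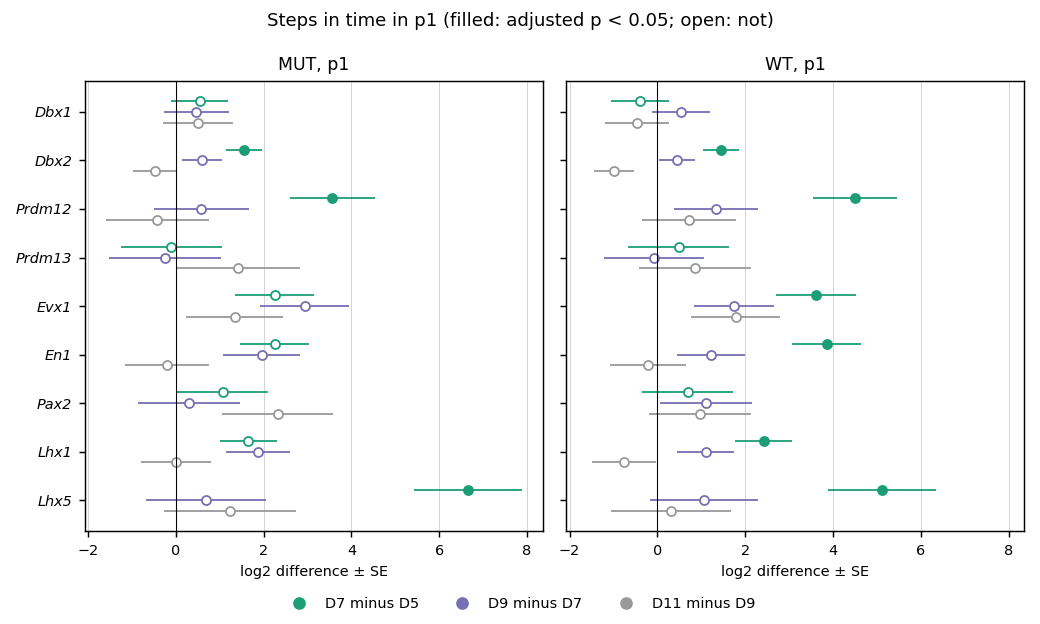
Log2 difference ± SE of each tested member in p1 for D7 minus D5, D9 minus D7 and D11 minus D9, for MUT and WT, with filled points past an adjusted p of 0.05. Called steps are all D7 minus D5, with 3 in MUT and 6 in WT.

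The WT D11 libraries are NFIAp and the earlier WT p1 libraries NFIAn, so in WT p1 day and gate cannot be told apart in D11 minus D9 and D11 minus D5. Over the whole course, 7 members were higher at D11 than at D5 in MUT p1 (23.5% of all genes called, 12.9% higher) and 5 in WT p1 (27.7% called, 14.0% higher). Both sets held Prdm12, Evx1, En1, Lhx1 and Lhx5. For En1 the difference was 4.01 ± 0.88 in MUT and 4.86 ± 0.88 in WT, for Lhx1 it was 3.54 ± 0.73 in MUT and 2.75 ± 0.73 in WT, and for Lhx5 8.58 ± 1.37 in MUT and 6.49 ± 1.37 in WT (2 against 3 libraries). Dbx2 was called in MUT at 1.67 ± 0.46 and had 0.90 ± 0.46 in WT. Pax2 was called in MUT at 3.68 ± 1.16 and had 2.77 ± 1.16 in WT. Dbx1 had 1.52 ± 0.73 in MUT (limma adjusted p = 0.133) and -0.33 ± 0.73 in WT, and the MUT value was called without the 18 libraries of high total (0.0211) and with only the compared groups fitted (0.00198). In MUT the call of Prdm12 was lost without D11 replicate 2 (0.119), that of Dbx2 without D11 replicate 3 (0.0516), and that of Pax2 without D11 replicate 2 or 3 or D5 replicate 2 (0.097, 0.0748 and 0.0867) and in edgeR (0.0894). In WT that of Lhx1 was lost without D11 replicate 2 (0.0572), and Pax2 was gained without D5 replicate 1 (0.0442).

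Genes shared by all neurons rose beside these members in p1. From D5 to D7, 9 of 14 rose in MUT and 12 in WT, and from D5 to D11, 14 in MUT and 13 in WT. Dcx, a microtubule protein of young neurons, averaged 1052 normalised counts at D11 against 8.407 at D5 in MUT p1 (6.83 ± 0.48), and 1007 against 15.29 in WT p1 (5.97 ± 0.48). Of 13 tested genes of dorsal progenitors and interneurons, where Pax2, Lhx1 and Lhx5 also act, 7 rose from D5 to D11 in MUT p1 and 8 in WT p1. The part of either list in the members' change was not tested. Of the 15 V0 and V1 partners, 5 rose in MUT, and in WT 5 rose and 1 fell, with Foxd3 at 196.8 against 11.2 in MUT (4.34 ± 1.03) and 194.4 against 0.9783 in WT (6.95 ± 1.03). Of the 6 genes of crest and peripheral neurons, 2 rose in MUT, and in WT 3 rose and 1 fell. Sox10, a factor of crest and of oligodendrocyte precursors, was at 912.8 in MUT at D11 against 1.655 at D5 (8.64 ± 1.13), and at 789.4 in WT at D11 against 6.562 at D5 (7.37 ± 1.13). The summed level of the 6 genes was 854.3 to 1854 in MUT and 1220 to 1355 in WT at D11, against 132 to 197 in MUT and 58.45 to 93.77 in WT at D5. En2, a paralog of En1 and a midbrain and hindbrain marker, rose too, to 115.5 in MUT at D11 against 9.15 at D5 (3.76 ± 0.82), and to 32.94 in WT at D11 against 5.699 at D5 (2.34 ± 0.82). Of the other midbrain and hindbrain genes listed, none was called. Gbx2 had -0.255 ± 0.368 in MUT and 0.105 ± 0.368 in WT, and Otx2 -0.077 ± 1.054 and 0.777 ± 1.054. Pax5 and Fgf17 were too low to be tested. The part of the crest genes or of En2 in the change of Foxd3 or En1 was not tested. The vesicular transporter gene Slc32a1 of inhibitory neurons was at 7.706 against 0 in MUT and 21.14 against 0 in WT. Among the 9 progenitor partners, Prdm8 rose in both genotypes and Irx3 fell in WT, to 760.5 at D11 against 2605 at D5 (-1.70 ± 0.61).

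The neuronal factors were not confined to p1. From D5 to D7 the 5 tested had a median difference of 2.74 in MUT p2 and 0.885 in WT p2, with 3 called in MUT and 1 in WT. The medians of all genes there were 0 and -0.004. The share of all genes called is not given for these comparisons, so the calls are a description only. In pM the neuronal medians were -0.083 in MUT and 0.564 in WT, where those of all genes were -0.022 and 0, and none was called. Between D5 and D11 the WT gate differs in p2 and pM as well. From D5 to D11 in p2, 4 of them were called higher in MUT and 4 in WT, and these were Evx1, En1, Lhx1 and Lhx5 both times (14.3% of all genes were called higher in MUT and 14.2% in WT). Evx1 reached 39.21 and 161.8 normalised counts in MUT p2 and 34.78 and 29.06 in WT p2 at D11, against 0 to 0.8364 in MUT p2 and 0 in WT p2 at D5. Prdm12 was called higher in MUT p2 too, by 4.65 ± 1.08. In pM, Evx1 and Lhx1 were called higher in MUT, by 4.84 ± 1.01 and 2.23 ± 0.73, and 0 neuronal factors in WT (11.6% of all genes called higher in MUT and 10.7% in WT). In the test of whether the D11 minus D5 change differed between p1 and p2 in WT, 0 members were called by limma, edgeR or DESeq2 (0.172% of all genes), with unadjusted p under 0.05 for 2, namely Dbx2 at 1.84 ± 0.65 and Prdm12 at 4.13 ± 1.52.

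MUT and WT were then compared within p1. Over D5 to D9, where both are NFIAn, 0 members were called by limma, edgeR or DESeq2, and 0 had an unadjusted p under 0.05 (0.522% of all genes called). Dbx1 differed by 0.28 ± 0.39 and Dbx2 by -0.18 ± 0.25 (8 and 9 libraries). At D11, where MUT is NFIAn and WT is NFIAp, genotype and gate cannot be told apart, and again 0 members were called by each tool, with 0 at an unadjusted p under 0.05 (0.293% of all genes called). The NFIAn label of MUT did not mean low Nfia RNA at D11. Nfia averaged 1071 normalised counts in MUT D11 p1 and 2616 in WT D11 p1, against 194.1 in WT NFIAn p1 at D9. Dbx1 averaged 12790 ± 1257 normalised counts in MUT D11 p1 and 4646 ± 1963 in WT D11 p1 (SD, n = 2 each), a log2 difference of 1.53 ± 0.80 with a limma adjusted p of 0.536. Prdm12 averaged 133.9 ± 71.4 in MUT and 500.7 ± 235.2 in WT (SD, n = 2 each), a log2 difference of -1.92 ± 1.18 (limma adjusted p = 0.629). In both genes the MUT and WT libraries did not overlap, and neither difference passed the test. The share of all genes that separate in this way with 2 libraries per group was not counted.

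The difference of the D11 minus D5 change between MUT and WT in p1 also gave 0 called members by limma, edgeR and DESeq2 and 0 with an unadjusted p under 0.05 (0.0382% of all genes called), with 1.85 ± 1.04 for Dbx1 and -2.83 ± 1.52 for Prdm12. Nor was a member called by the 3 tools for the MUT minus WT difference at D11 in p1 less that in p2 (0.0255%; 0 members at an unadjusted p under 0.05) or in pM (0.0636%; 1 member, Dbx2). Dbx2 ran in opposite directions there. Its normalised counts were 2140 and 2332 in MUT p1 against 1792 and 1449 in WT p1, and 70.79 and 198.2 in MUT pM against 349.9 and 478.1 in WT pM. The difference between the 2 contrasts was 2.25 ± 0.71, with a limma adjusted p of 0.468.

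The NFIA gate was compared at D9 in WT, in p2 and pM, since p1 was sorted as NFIAn only. By limma, edgeR and DESeq2, 0 members were called for NFIAp minus NFIAn (0.204% of all genes), and 1, Dbx2, had an unadjusted p under 0.05 at 1.00 ± 0.31 (6 and 5 libraries; limma adjusted p = 0.205). In p2 its normalised counts were 427.3, 275.4 and 618.9 in NFIAp and 101, 73.6 and 323.9 in NFIAn, which overlap as groups. In pM they were 147.8, 248.6 and 300.1 in NFIAp (replicates 1, 2 and 3) and 126.9 and 236.3 in NFIAn (replicates 1 and 3). Within all 5 pairs of the same domain and number, Dbx2 was higher in NFIAp. It was called with the replicate number as a block (1.08; limma adjusted p = 0.0112) and with correlated libraries (1.05; 0.01). Under the block 543 of all 15714 genes were called, against 32 in the main fit.

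Across the 26 group means of log2(normalised count + 1), which share days and gates, Dbx1 and Prdm13 had the highest correlation among the members, with a Pearson r of 0.960. The 6 pairs of progenitor factors had r of 0.79 to 0.96 and the 10 pairs of neuronal factors 0.502 to 0.897, against 0.241 to 0.682 for the 20 mixed pairs. Within the 8 p1 groups the neuronal pairs had 0.773 to 0.976, the progenitor pairs 0.081 to 0.829 and the mixed pairs 0.28 to 0.963. At the ends of the mixed pairs, En1 had r of 0.885 with Dbx2 and 0.963 with Prdm12 in p1, and of 0.338 with Dbx1 and 0.28 with Prdm13. Dbx1 with Prdm13 was at 0.561 in p1, and Dbx2 with Prdm13 at 0.081. These are descriptions over few groups, with no test.

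Among 11993 other genes with a mean of at least 50 normalised counts in some group, those most like each member over the 26 groups were as follows. Dbx1 was followed by the Wnt antagonist gene Frzb (r = 0.891), Wnt1 (0.890) and Pax3 (0.887), and Prdm13 by Pax3 (0.884), the atypical cadherin gene Fat4 (0.882) and Wnt1 (0.877). Dbx2 was followed by the actin-bundling gene Pls3 (0.893), Plekhg1 (0.833) and Rcn1 (0.829), and Prdm12 by Fat4 (0.904), Zfp9 (0.874) and Tmem132b (0.842). For En1 they were Lrrtm1, a synaptic adhesion gene (0.926), Hoxa4 (0.917) and Hoxd8 (0.909), and for Lhx1 they were Lhx1os (0.895), Lrrtm1 (0.888) and Foxd3 (0.888). Lhx1os is named for the strand opposite Lhx1, though no gene annotated in GENCODE M21 overlaps Lhx1. Whether the counting kept the reads of Lhx1os and Lhx1 separate was not tested. Evx1 was followed by Bnip3l (0.930), Rnls (0.917) and Lifr (0.914), Lhx5 by the glutamate transporter gene Slc1a2 (0.915), Gal (0.896) and Glrx (0.863), and Pax2 by Atoh1 (0.835), Tcf12 (0.834) and Dmrta1 (0.834).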

How the data were processed

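Polyadenylated RNA of 66 libraries was read from 1 deposited table. Per the submitters' processing notes, the authors used mm10 and DESeq2, and gave neither a version nor an aligner. The authors' deposited signal is a normalised count (reads over a size factor), and dividing it by the value of 1 read gave whole numbers within 0.01 for 100% of values. No 2 replicates held identical values. Groups came from the sample titles. Each comparison used limma (variance trend, a mean per group over all 66 libraries, two-sided) on log2(normalised count + 1) for genes with at least 10 in at least 2 libraries, with Benjamini-Hochberg adjustment over 15714 genes. Values are log2 difference ± SE unless SD is given. Groups of 1 library were assumed to vary like the others. The 9 tested members entered every comparison, and those within single days and over time in p2 and pM are given in part. Up to 4 called genes of the largest difference are given from each list described, and the 3 genes of highest correlation with each tested member. The members and lists were chosen with earlier results of these data known. Alternatives were TMM scaling, a pseudocount of 8, dropping the filter, counting tests on the recovered reads (edgeR's quasi-likelihood test, DESeq2), only the compared groups, the replicate number as a block, correlated libraries, leaving out each library, and leaving out the 18 libraries of high total. The difference in D9 minus D5 change between domains was added after seeing the data. Deviations of same-numbered libraries from their group means correlated above 0.1 in all 10 MUT p1 and pM pairs (lowest 0.133), so the numbers were taken to pair those libraries, a pairing that comes from the data. Where both groups hold 2 libraries, both pairs have the same value by construction (0.213 at D9, 0.294 at D11), so the 10 are not separate. The main fit takes libraries as independent, while those of one genotype, day and number correlated at 0.375. The main fit was tested on simulated data for some of the comparisons. There libraries were independent and only genes of higher read count were changed, so it does not cover members as low as Evx1 and Pax2. Positions are from GENCODE M21 on GRCm38, promoters from RefSeq on GRCm38.p6. Fits used edgeR 4.0.16, DESeq2 1.42.0 and limma 3.58.1 in R 4.3.3, and tables and plots used pandas 2.3.3 and matplotlib 3.10.9 in Python 3.11.15.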

Additional observations from a re-analysis of the deposited data

Results flagged for a closer look

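For 2 members the D9 minus D5 change differed between domains by a test of the difference itself. The D9 minus D5 change of Dbx2 was larger in p1 than in p2 by 3.85 in WT, larger in p1 than in pM by 3.25 in WT, and larger in p1 than in pM by 3.58 in MUT, on the log2 scale. Against p2 in MUT the Dbx2 value was 1.84 and was not called (limma adjusted p = 0.624). That of Prdm12 was larger in p1 than in pM by 7.02 in WT, with both WT D9 NFIAn pM libraries at 0. This call was lost in edgeR (0.29), with only the compared groups fitted (0.0852) and on leaving out replicate 2 of WT D5 pM (0.0708). The Dbx2 call against pM in WT was lost without WT D9 pM replicate 1 (0.0554). The comparison was chosen after its values were seen, and D9 holds 2 of the library sets of high total. Its D9 groups were NFIAn only. Per kilobase of exon, Dbx2 in WT D9 p2 averaged 47.88 in NFIAn and 127.0 in NFIAp, and the change against NFIAp p2 was not tested.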

How the results depend on the processing

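Directions of called members did not turn in any alternative run. Of the member results, 27 calls were lost and 6 gained over the fits that leave out 1 library, and 8 were lost and 55 gained over the other alternatives. The number of called members moved by over 1.5 times as follows, and the cause was not tested. The D9 minus D5 results were added after seeing the data. With the replicate number as a block it was 7 against 4 for p1 minus p2 in WT (Evx1, En1 and Lhx1 gained), 7 against 4 for p1 minus pM in MUT, 1 against 0 for NFIAp minus NFIAn at D9 (Dbx2, adjusted p = 0.0112) and 4 against 2 for the D9 minus D5 change of p1 less pM in WT. Outside the paired MUT p1 and pM libraries, same-numbered libraries correlated above 0.1 in 6 of 8 MUT p1 and p2 pairs, 9 of 11 and 5 of 9 WT pairs of p1 with p2 and pM, 3 of 5 gate pairs, 5 of 10 genotype pairs, and 2 of 8 MUT and 4 of 10 WT time pairs, so not every pair passed 0.1, although high totals follow the day and number across populations. With libraries of one genotype, day and number correlated (0.375), it was 7 for p1 minus p2 in WT, 1 for the gate, and, for the D9 minus D5 change, 2 against p2 in WT, 5 against pM in WT and 2 against pM in MUT. With a pseudocount of 8 it was 1 for the D11 minus D5 change of p1 less p2 in WT (Prdm12), and 2, 4 and 2 for the same 3 D9 minus D5 results, against 1, 2 and 1. DESeq2 gave 5 against 3 for MUT p1 D7 minus D5, and 4 and 2 for the D9 minus D5 change against pM in WT and MUT. Fitting only the compared groups gave 2 for the D9 minus D5 change against pM in MUT. Leaving out 1 library at a time gave 1 to 4 members for MUT p1 D7 minus D5, 4 to 5 for WT p1 D7 minus D5, 5 to 7 and 4 to 6 for D11 minus D5 in MUT and WT, 4 to 5 and 6 to 8 for p1 minus p2 and pM in WT, and 1 to 2 for the D9 minus D5 change against pM in WT, where the lower value arose without WT D5 pM replicate 2 or WT D9 pM replicate 1. Counts over all genes varied more, from 127 to 1342 around 288 for p1 minus p2 in WT, and from 1 to 1315 around 46 for MUT minus WT in p1 at D11, with the highest under the block. The block also gave 2773 genes against 1043 for p1 minus pM in MUT, and 543 against 32 for NFIAp minus NFIAn at D9. TMM scaling moved no count by that much. No value could be had for p1 minus p2 in MUT, or for its D9 minus D5 change, without MUT D9 p2 replicate 3, the only library of its group, which is also among the 18 of high total. Evx1, Pax2 and Prdm12 at their lowest rest on few reads, so a value of 0 is limited by depth.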
